A study of Mus musculus with 4 samples.

Results

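The Cas scaffold family was followed in Beko cells, progenitor T cells of the mouse that grow as a line and in which Notch is always active, after the release of a Notch block. The family comprises 4 genes, Bcar1, Nedd9, Efs and Cass4, which were found by symbol among the 24391 genes of the count table. The family was picked because Cass4 was lower upon washout, so that the washout against GSI values of its members are a description of that choice, and no test is attached to them. RNA-Seq was available for 4 libraries. In the 2 GSI libraries, Beko cells had been exposed for 48 h to the γ-secretase inhibitor (GSI) DAPT, which prevents the release of the active Notch intracellular domain. In the 2 washout libraries, cells had received the same 48 h of GSI and were then washed and kept for a further 24 h without it. The labels give the dose as 10 mg/ml DAPT, whereas the methods of the study give it in a smaller unit of mass. Both conditions share the inhibitor treatment. The washed cells were also cultured for longer, so that the return of Notch activity and the additional wash and culture cannot be told apart. All libraries come from 1 cell line, and the labels do not say whether replicates are separate cultures, so p-values refer to the spread between these libraries, which may be technical.

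Cas proteins have no enzymatic activity. They are scaffolds that carry an SH3 domain at the amino terminus, a substrate domain rich in tyrosines and a carboxy-terminal domain that directs them to sites of adhesion. When integrins or antigen receptors are engaged, focal adhesion kinases and Src-family kinases phosphorylate the substrate domain, the adaptors Crk and Crkl dock onto it, and their exchange factors activate the small GTPases Rac and Rap, which drive cell spreading, adhesion and migration. Bcar1 (p130Cas) is the broadly expressed founding member and is best known from adherent cells, Nedd9 (HEF1 or CasL) is the member best known from lymphocytes, Efs (Sin) has been studied in thymocytes, and Cass4 (HEPL) is the least studied of the family.

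The total counts per library lay between 13716199 and 36364200. CPM denotes the read count of a gene relative to the TMM-scaled library total. At this depth 3 reads correspond to 0.0881 to 0.223 CPM, the limit used here for a gene without reads, which covers counting error only. The labelled cell type was checked against its markers. All 12 progenitor T-cell markers, among them Cd3e, Ptcra, Rag1 and Bcl11b, were present in every library. Ptcra and Notch1, which are also listed as Notch target genes, rose past both thresholds, and Gata3 fell past both. Summed, the 12 had 6372 and 6976 CPM under GSI and 7249 and 7246 CPM upon washout. This sum covers opposite changes. Rag1 alone had 1763 and 2367 CPM under GSI and 2765 and 2555 CPM upon washout. Within the thresholds, Tcf7, Bcl11b and Thy1 were lower, at log2 fold changes of -0.87, -0.72 and -0.58. Cd3g and Rag2 were higher, at 0.86 and 0.64. Of 9 Notch target genes, 8, all but Notch3, rose past both thresholds (a Benjamini-Hochberg adjusted p-value under 0.05 in edgeR and more than 1 log2 unit of change). For comparison, 7.74% of all genes tested rose and 11.7% fell past both thresholds.

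The region upstream of the start site was examined for the motif of RBPJ, the DNA-binding factor of the Notch pathway. The 250 bases before the RefSeq start are shown for Cass4 and Nedd9, the members with reads, to let their composition be compared. They were located in mm9 by a unique exact match, at chr2:172218894-172219143 on the plus strand for Cass4 and at chr13:41454371-41454620 on the minus strand for Nedd9, whose RefSeq start lies inside the longer locus of the annotation. Capitals mark TGGGAA, the only match found in these upstream parts for the 2 motifs searched, TGGGAA and TGAGAA, on both strands.
Cass4: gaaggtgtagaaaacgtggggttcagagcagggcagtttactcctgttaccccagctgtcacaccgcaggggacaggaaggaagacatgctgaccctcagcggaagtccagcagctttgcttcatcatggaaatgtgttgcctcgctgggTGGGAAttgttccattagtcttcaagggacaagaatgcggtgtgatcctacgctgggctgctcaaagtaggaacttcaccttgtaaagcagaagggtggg
Nedd9: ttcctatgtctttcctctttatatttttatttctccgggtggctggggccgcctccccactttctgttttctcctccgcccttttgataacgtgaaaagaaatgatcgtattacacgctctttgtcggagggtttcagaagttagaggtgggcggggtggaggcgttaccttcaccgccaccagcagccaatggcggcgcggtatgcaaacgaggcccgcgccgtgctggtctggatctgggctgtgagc

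In the Cass4 window TGGGAA begins 100 bases before the RefSeq start, which lies upstream of the start of Cass4 in the annotation, at 172219294. The same letters stand 141 bases before the more upstream of the 2 RefSeq starts of Bcar1, and the window of Nedd9 holds TGAGAA on the opposite strand, from base 34 of the transcript. The windows of Efs and of the other Bcar1 start hold neither. Such matches are common. Of 32851 RefSeq promoter windows of 300 bases (250 before and 50 after the start, GRCm38.p6), 25.6% hold TGGGAA and 20.2% hold TGAGAA. A match is a description of the letters, and RBPJ binding was not analysed here. The windows also differed in CpG content. The window of Cass4 has 6 CpG sites and 48.0% GC, close to the median of 7 CpG sites over all windows, whereas that of Nedd9 has 21 CpG sites, that of Efs 27 and those of Bcar1 30 and 29.

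Only Nedd9 and Cass4 were expressed above the limit of detection in Beko cells. Nedd9 lies on chromosome 13 from 41405285 to 41582689 (mm9, minus strand), with 4724 bases of exon. Its counts were 4706 and 1915 in GSI replicates 1 and 2 and 2730 and 1144 in washout replicates 1 and 2. These correspond to 147.0 and 131.2 CPM under GSI and to 80.2 and 85.1 CPM upon washout. The replicates of either condition were close to each other. The mean was 139.1 ± 11.2 CPM (SD, n = 2) in GSI and 82.6 ± 3.48 CPM (SD, n = 2) upon washout, a ratio of GSI to washout of 1.68. For Nedd9 the log2 fold change was -0.75 (standard error 0.101), which is short of the threshold of -1. By its mean level, Nedd9 stood at the 81.6th percentile of the genes tested. An annotated lincRNA, Gm17260, lies on the other strand within the Nedd9 locus.

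Cass4 lies on chromosome 2 from 172219294 to 172259257 (mm9, plus strand), with 5370 bases of exon. Its counts were 696 and 429 in GSI replicates 1 and 2 and 45 and 21 in washout replicates 1 and 2. On the CPM scale Cass4 had 21.7 and 29.4 in GSI and 1.32 and 1.56 upon washout. Every pairing of a GSI with a washout library gave a ratio between 13.9 and 22.2. The mean of Cass4 was 25.6 ± 5.41 CPM (SD, n = 2) in GSI and 1.44 ± 0.170 CPM (SD, n = 2) upon washout, a ratio of 17.7. This is the value for which the family was picked. Cass4 had a log2 fold change of -4.17 (standard error 0.240), the 23rd lowest among the 12266 genes tested, while its mean level was at percentile 31.2. Upon washout Cass4 was still present, with counts whose 95% Poisson intervals were 32.8 to 60.2 and 13.0 to 32.1, above the limit of 3 reads. An exon of the lincRNA Gm14455 on the other strand overlaps an exon of Cass4. Gm14455 was not among the genes counted and the strand setting of the counting is not given in the sources used here, so reads of the antisense transcript could be part of the Cass4 values. Fewer cells with Cass4 and less Cass4 RNA per cell cannot be told apart in bulk RNA.

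Bcar1 and Efs were at or near 0 in both conditions. Bcar1, on chromosome 8 from 114234367 to 114267748 (mm9, minus strand), had 1 read in GSI replicate 1 and 0 in the other 3 libraries. Efs, on chromosome 14 from 55535380 to 55545625 (mm9, minus strand), likewise had 1 read in GSI replicate 1 and 0 in the other 3 libraries. Neither overlaps another annotated gene. Over all libraries this is 1 read for each gene among 94203795, and neither passed the filter on low counts. A difference between the conditions was not detectable for Bcar1 and Efs at this depth, and no fold change is given. Hmgcs1, an enzyme of cholesterol synthesis that most cells use, also had 0 reads in every library, so a 0 in these counts does not by itself show that a gene is silent.

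**Figure D1:**
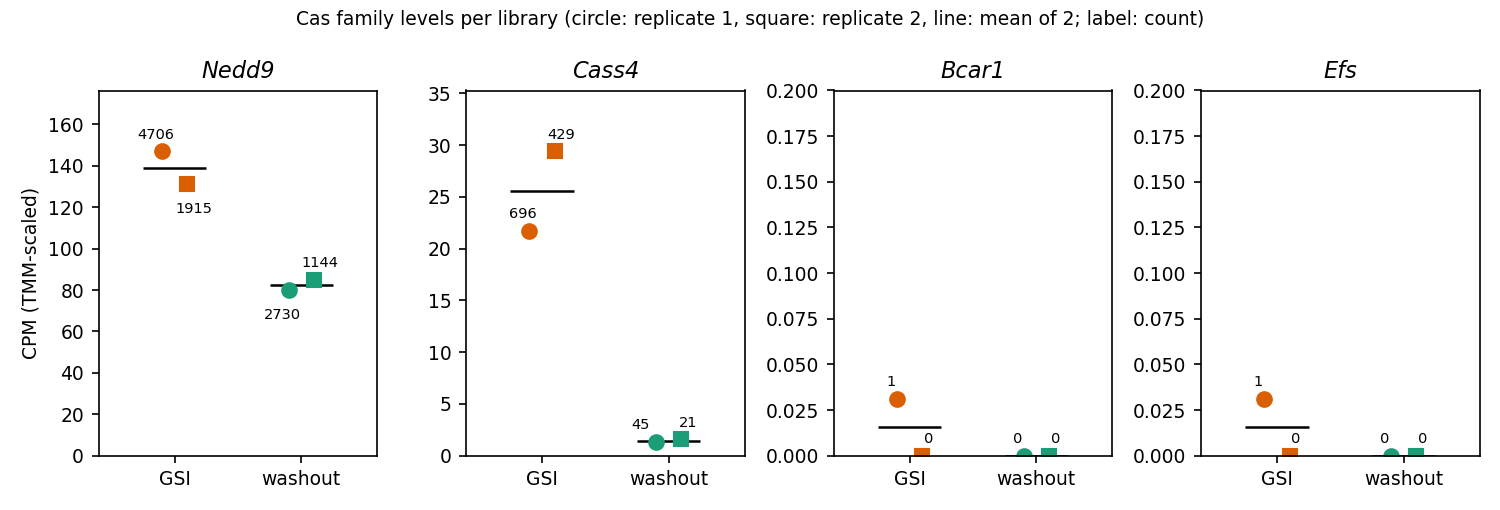
TMM-scaled CPM (vertical axes, each from 0) of the 4 Cas family genes in GSI and washout, with 1 point per library, a line at the mean of 2 libraries and the read count beside each point. Nedd9 is lower upon washout (2730 and 1144 reads against 4706 and 1915), Cass4 lies close to the axis with 45 and 21 reads, and Bcar1 and Efs have at most 1 read in any library.

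Of the 4 members, 2 were tested in the fit over all genes, and 1 of these, Cass4, was past both thresholds in the lower direction. Among all 12266 genes tested, 11.7% were lower and 7.74% higher past both thresholds, 19.5% in either direction. Since the family was picked from this contrast, nothing is read from that count. Within the family, the log2 fold changes of Cass4 and Nedd9 have the same sign but differ in size.

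**Figure D2:**
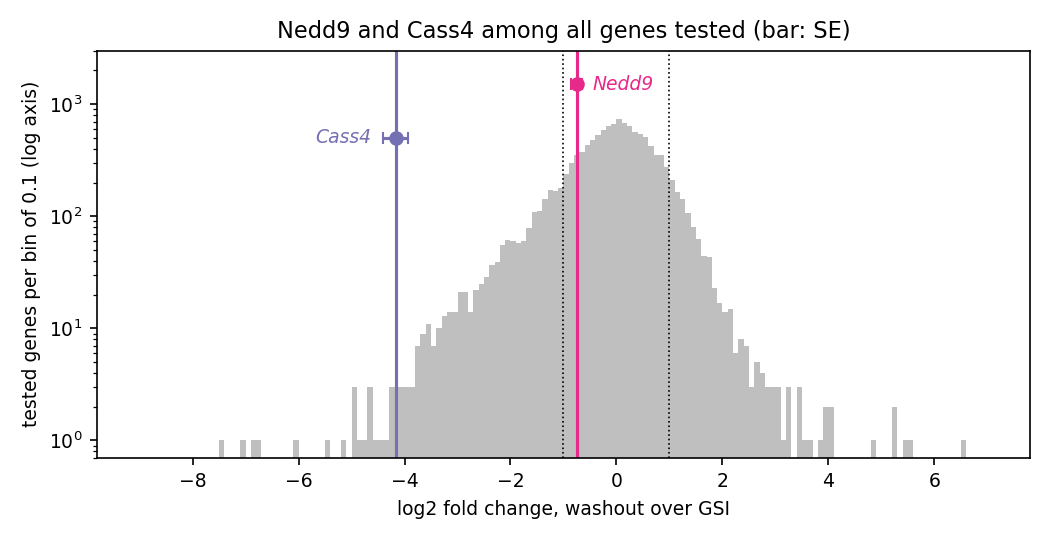
Histogram of the log2 fold change of washout over GSI for the 12266 genes tested (horizontal axis), with the number of genes per bin on a log axis, dotted lines at -1 and 1, and Nedd9 and Cass4 marked with their standard errors. Cass4 at -4.17 lies far out in the lower tail, and Nedd9 at -0.75 lies inside the dotted lines.

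Levels of different genes were compared per kilobase of exon. In GSI, Nedd9 had 31.1 and 27.8 CPM per kilobase and Cass4 had 4.05 and 5.47. Upon washout the same scale gave 17.0 and 18.0 for Nedd9 and 0.246 and 0.291 for Cass4. Nedd9 was thus the leading Cas gene in every library, Cass4 the next, and Bcar1 and Efs, with 1 or 0 reads, cannot be ordered against each other. The ratio of Nedd9 to Cass4 within a library does not depend on any scaling between libraries. Per kilobase it was 7.69 and 5.07 in GSI and 69.0 and 61.9 upon washout.

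The make-up of the family follows from the counts for which it was picked and is given as a description, with intervals that cover counting error only. Cass4 took 12.9% of all Cas family reads in GSI replicate 1 (95% exact binomial interval 12.0 to 13.8) and 18.3% in GSI replicate 2 (16.8 to 19.9). Upon washout the share of Cass4 was 1.62% (1.19 to 2.16) and 1.80% (1.12 to 2.74). Nedd9 held 87.1% and 81.7% of the family reads in GSI, and 98.4% and 98.2% upon washout. Taken over the whole family, the level was 168.8 and 160.6 CPM under GSI and 81.5 and 86.7 CPM upon washout.

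**Figure D3:**
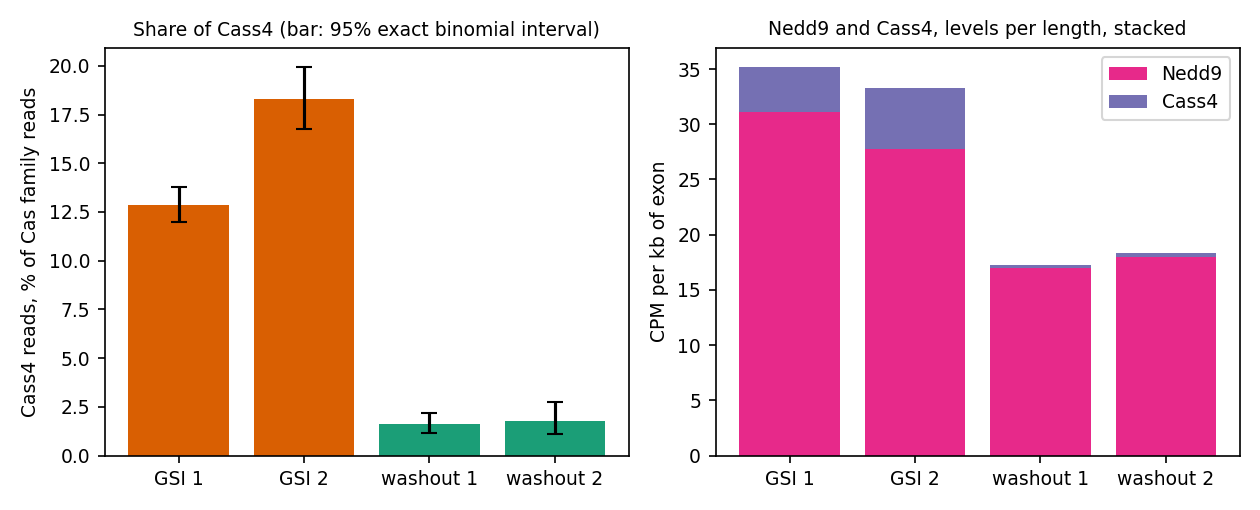
Left, reads of Cass4 as percent of all Cas family reads in each library, with 95% exact binomial intervals. Right, stacked levels of Nedd9 and Cass4 in CPM per kilobase of exon. The share of Cass4 is 12.9% and 18.3% in GSI and under 2% upon washout, and Nedd9 makes up most of the bar in every library.

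As an account of the cells in which Cass4 was measured, markers of other blood cell types were read in the same libraries. Of 10 mast cell markers, only 2, Cpa3 and Kit, had enough reads to be tested, and both fell past both thresholds. For comparison, 11.7% of all genes tested fell past both thresholds. The summed level of the mast cell list was 274.7 and 166.8 CPM under GSI and 45.7 and 30.5 CPM upon washout. The mast cell genes Cma1, Mcpt4, Tpsb2, Tpsab1, Fcer1a and Ms4a2 had 0 reads in every library. Of 8 myeloid markers in the table, only Itgam was tested, and it fell past both thresholds. Itgam made up nearly all of the summed level, which was 49.1 and 38.2 CPM under GSI and 5.49 and 4.98 CPM upon washout. Lyz2, Elane and Cebpa had 0 reads. Of 6 genes of natural killer and innate lymphoid cells, only 3, Gzma, Prf1 and Nkg7, were tested, and all fell past both thresholds. The summed level was 2607 and 1804 CPM under GSI and 387.8 and 308.0 CPM upon washout. Nearly all of it was Gzma, with 2599 and 1799 CPM under GSI and 387.1 and 307.2 CPM upon washout. Zbtb16 had 0 reads and Ncr1 at most 1. Each of 6 B-cell markers stayed at 14 reads or fewer, with Pax5, Ms4a1 and Ebf1 at 0. Of 6 stromal markers, 3 were tested, and Col1a1 fell past both thresholds, from 29 and 18 reads to 4 and 0. The summed level of the list was 47.6 and 45.1 CPM under GSI and 27.9 and 36.5 CPM upon washout. Most of it was Pdgfrb, with 44.5 and 42.1 CPM under GSI and 26.6 and 35.0 CPM upon washout. The part of these genes in the values of Cass4 was not tested.

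Genes with a profile like that of the 2 expressed members were sought by the Euclidean distance between log2 CPM values, centered for each gene on its mean over the 4 libraries, among 12264 other genes tested. The 5 nearest to Cass4 were Mir7007, Slfn5, Prdm1, Ly6c1 and Lzts1, at distances from 0.469 to 0.753. Ly6c1, a surface antigen of lymphocytes and monocytes, had 117.1 and 139.3 CPM under GSI and 11.4 and 13.5 CPM upon washout. Slfn5, of the Schlafen family, had 201 and 161 reads in GSI and 13 and 9 upon washout, so that, like Cass4, GSI replicate 2 was the higher of the GSI libraries on the CPM scale (6.28 and 11.0). Prdm1, which encodes the repressor Blimp-1, had 53 and 23 reads in GSI and 2 and 1 upon washout, a ratio of 25.8 with a counting interval of 8.50 to 127.9. Lzts1 had 326 and 145 reads in GSI against 31 and 9, and the row named Mir7007 had 27 and 16 against 0 and 0, so that its distance depends on the prior count of 2 added to every gene. The 5 nearest to Nedd9 were Mus81, Casp9, Lrrk2, Capn1 and Llgl2, at distances from 0.0111 to 0.0468. Mus81, the catalytic subunit of a structure-specific nuclease, had 53.8 and 48.4 CPM under GSI and 29.5 and 31.5 CPM upon washout, and Capn1, a calcium-dependent protease, had 168.3 and 153.9 CPM against 92.7 and 95.5 CPM. The profiles rest on 4 libraries, and the genes are named as a description only.

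The genes around Cass4 were examined after its value was known. Within 150 kb of Cass4 the annotation holds 8 other protein-coding genes, of which 7 were tested. Of these, 2 fell past both thresholds and 5 did not pass both, against 11.7% of all genes that fell. The closest gene on the left, Cstf1, a subunit of the mRNA cleavage complex at a distance of 11.3 kb, had 68.9 and 73.6 CPM under GSI and 85.6 and 86.7 CPM upon washout. Beyond it Aurka, the mitotic kinase Aurora A and a known partner of the Nedd9 protein, had 80.8 and 85.3 CPM under GSI and 110.0 and 116.6 CPM upon washout. Aurka changed by 0.45 log2 units (standard error 0.0918, edgeR adjusted p = 0.00817), short of the threshold of 1. On the right, at 6.80 kb, Rtfdc1 had 111.2 and 129.1 CPM under GSI and 84.3 and 90.5 after washout, which is -0.46 in log2 units (standard error 0.110). Gcnt7, which overlaps Rtfdc1 on the other strand and is therefore uncertain, had 99 and 82 reads against 54 and 32, with an edgeR adjusted p of 0.0505. Fam210b, 38.0 kb to the left, fell from 8.25 and 8.43 CPM to 2.67 and 2.31 CPM (log2 fold change -1.72, standard error 0.220). Tfap2c, 115.8 kb to the right, fell from 21 and 10 reads to 1 and 1, a ratio of 15.8 with a counting interval of 4.02 to 136.2. The log2 fold changes of the tested neighbors thus had both signs. Around Nedd9, 5 other protein-coding genes are annotated within the same distance, and only Tmem170b could be tested, with 122.3 and 136.5 CPM under GSI and 107.0 and 92.4 CPM upon washout.

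**Figure D4:**
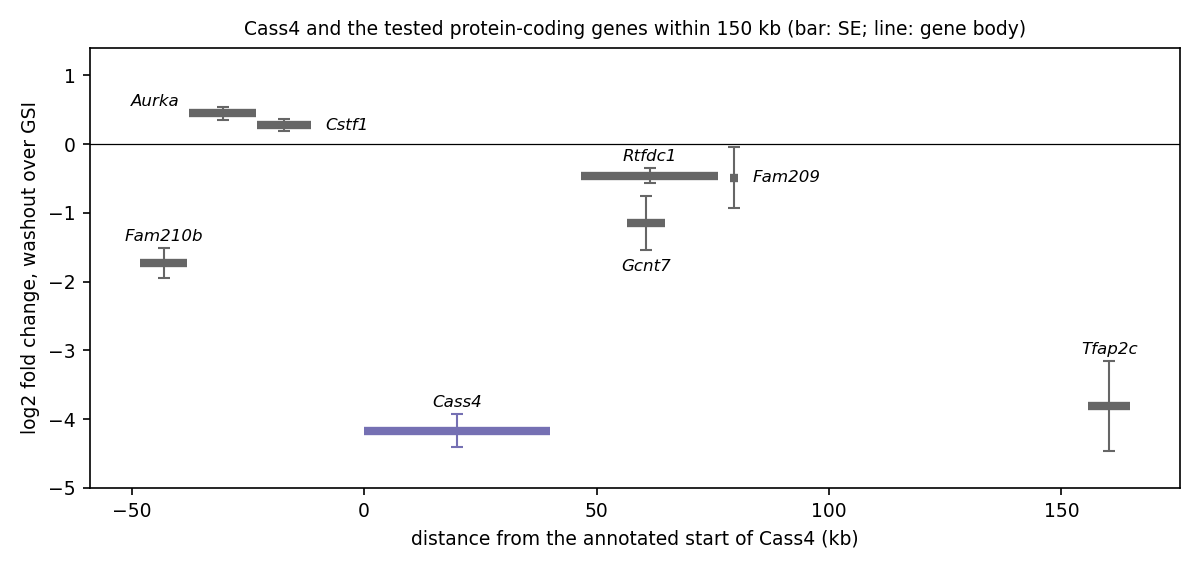
Log2 fold change of washout over GSI with its standard error (vertical axis) for Cass4 and the 7 tested protein-coding genes within 150 kb, placed by distance from the annotated start of Cass4 in kb, with lines as long as the gene bodies. Cstf1 and Aurka lie above 0, Rtfdc1, Gcnt7 and Fam209 between 0 and -1.15, Fam210b at -1.72, and Tfap2c near Cass4, at a fitted value that rests on 1 read in each washout library.

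Next, the genes that act with Cas scaffolds were read as 6 lists by role, 79 genes in all, 70 of which were tested. Upon washout 1 of them rose and 6 fell past both thresholds, while 63 passed neither direction. This is 1.43% higher and 8.57% lower, against 7.74% and 11.7% of all genes tested. Their median log2 fold change was -0.14, against -0.01 for all genes tested. With no filter beyond 1 count these medians were -0.11 and -0.07, and with DESeq2, untested genes included, -0.12 and -0.10. With the correction for GC content and length they were -0.04 and 0.07. The medians lay further apart with thinned counts (-0.19 and -0.02) and with at least 10 counts in every library (-0.167 and -0.006). A further 18 genes had an adjusted p-value under 0.05 with a log2 fold change within -1 and 1. By the adjusted p-value alone, 3 of the 70 were higher and 22 lower, against 3315 higher and 3120 lower of all 12266 genes tested.

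Of the 12 tyrosine kinases listed, 7 were tested, 1 fell and none rose past both thresholds, with a median log2 fold change of -0.09. Ptk2b (Pyk2), the relative of focal adhesion kinase that is found in blood cells, fell from 149 and 19 reads to 6 and 1. Ptk2b changed by -4.38 log2 units (standard error 0.813, edgeR adjusted p = 0.00556), with 4.65 and 1.30 CPM under GSI, where replicate 1 was far above replicate 2. The size of this change depended on single libraries, with -3.13 log2 units without GSI replicate 1 and -5.28 without washout replicate 1, and Ptk2b stayed past both thresholds in either case. It lies on chromosome 14 from 66772094 to 66899889 (mm9). Focal adhesion kinase itself, Ptk2, stood at 0.06 log2 units (standard error 0.0883, edgeR adjusted p = 0.589) on 4554 and 2029 reads in GSI and 5063 and 1947 upon washout. Among the Src-family kinases, Lck was the most abundant, with 226.0 and 230.2 CPM per kilobase in GSI and 262.8 and 269.1 upon washout. The level of Fyn was 39.5 and 37.6 CPM per kilobase in GSI and 54.1 and 50.3 upon washout, a difference of 0.44 log2 units (edgeR adjusted p = 0.0109), under the threshold of 1. Src itself, with at most 13 reads in any library, was too low to be tested, as were Yes1, Lyn and Blk.

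All 9 SH2 adaptors and all 10 phosphatases and kinase restraints were tested, and none of either list was past both thresholds. The adaptors that dock onto phosphorylated Cas, Crk and Crkl, had log2 fold changes of -0.06 (standard error 0.0942) and 0.23 (standard error 0.118). Nck2, the most abundant adaptor, had 11785 and 4915 reads in GSI and 7813 and 3102 upon washout, a log2 fold change of -0.62. In the other list the values ran from -0.66 for Ptpn12 (PTP-PEST), the phosphatase known to act on Cas proteins, to 0.33 for Csk, which restrains Src-family kinases. The membrane adaptor Pag1, which had the most reads in this list, had a log2 fold change of -0.34.

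Of the 11 exchange factors and their partners, 8 were tested, with 1 rise, 1 fall and a median log2 fold change of -0.09. Elmo1, which works with Dock proteins to activate Rac, rose from 672 and 377 reads to 1689 and 690. On the CPM scale these were 21.0 and 25.8 in GSI and 49.6 and 51.3 upon washout. For Elmo1 this is 1.12 log2 units (standard error 0.131, edgeR adjusted p = 0.00109), close to the threshold, and 0.96 without GSI replicate 1. Sh2d3c, which encodes an adaptor (Chat or SHEP1) that binds the carboxy-terminal part of Cas proteins, fell from 8.90 and 8.49 CPM to 3.20 and 3.27. Sh2d3c changed by -1.43 log2 units (standard error 0.202, edgeR adjusted p = 0.00204). With the correction for GC content and length Sh2d3c was at -1.06, close to the threshold. It overlaps 6330409D20Rik on the other strand. The Crk-bound exchange factor Rapgef1, the most abundant of the list, had a log2 fold change of 0.29, and Dock2, the Dock protein of lymphocytes, one of -0.02. Dock1 and Bcar3, which belong to the adherent-cell version of this pathway, had at most 2 reads in any library.

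Of the 21 adhesion scaffolds, 20 were tested, and 2 fell past both thresholds, with a median log2 fold change of -0.33. Zyx (zyxin), an actin-associated LIM protein of focal adhesions, fell from 20.2 and 13.8 CPM to 4.46 and 3.64. For Zyx this is -2.06 log2 units (standard error 0.247, edgeR adjusted p = 0.00117). Zyx lies on chromosome 6 from 42299827 to 42310145 (mm9), where it overlaps Epha1 on the other strand. Tgfb1i1 (Hic-5), a relative of paxillin, fell from 24 and 14 reads to 8 and 6, a log2 fold change of -1.43 (standard error 0.488) with an edgeR adjusted p of 0.0485. With DESeq2 its log2 fold change was -1.36 and its adjusted p 0.276. Tln1 (talin), with the most reads of the list, had a log2 fold change of -0.37 (standard error 0.126), and Parvg, the parvin of blood cells, the highest value of 0.34 (standard error 0.133).

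Of the 16 Rac and Rap GTPases and their regulators, all were tested, 2 fell and none rose past both thresholds, with a median log2 fold change of -0.19. Rras, a Ras-related GTPase that promotes integrin activity, fell from 78 and 37 reads to 25 and 7, a log2 fold change of -1.91 (standard error 0.337). Rap1gap, which switches Rap1 off, fell from 10.4 and 6.03 CPM to 2.97 and 1.49. Rap1gap changed by -1.82 log2 units (standard error 0.401, edgeR adjusted p = 0.0106), and by -1.31 with the correction for GC content and length. Without GSI replicate 1 Rap1gap was at -1.37 log2 units with an edgeR adjusted p of 0.0525, and without washout replicate 1 at -2.48. Rap1gap overlaps 1810058N05Rik on the other strand. The GTPases that act downstream of Crk lay inside the thresholds. Rac1 had a log2 fold change of 0.39 and Rac2, the blood cell form and the gene with the highest mean log2 CPM of the list, one of -0.61, whereas Rap1a and Rap1b had 0.00 (standard error 0.245) and -0.16 (standard error 0.211).

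**Figure D5:**
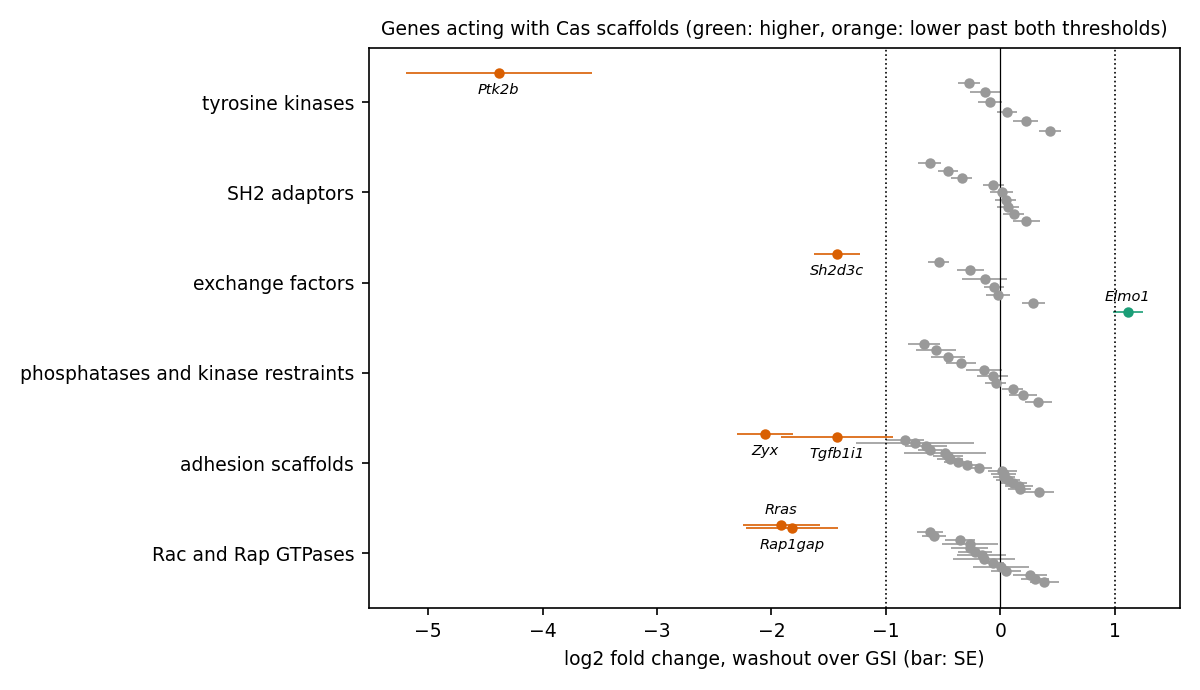
Log2 fold change of washout over GSI with its standard error (horizontal axis) for the 70 tested genes that act with Cas scaffolds, grouped by role, with dotted lines at -1 and 1. Ptk2b, Sh2d3c, Zyx, Tgfb1i1, Rras and Rap1gap fell past both thresholds, Elmo1 rose, and all adaptors and phosphatases lie inside the dotted lines.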

How the data were processed

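RNA-Seq libraries of total RNA depleted of ribosomal RNA were analyzed. Per the methods, the authors used trimGalore for trimming, HISAT2 (version 2.2.1 in the submitters' processing notes) for alignment to mm9, with 1 alignment per read and a limit on intron length, and summarizeOverlaps for counting. The deposited table holds these counts without normalization. The limit on introns can lower the counts of genes with long introns in all libraries alike. The conditions were compared in R 4.3.3 by edgeR 4.0.16 (filterByExpr, TMM, quasi-likelihood test without covariates, Benjamini-Hochberg adjustment over 12266 genes). A gene was called at an adjusted p-value below 0.05 with more than 1 log2 unit of change, the thresholds of the study's methods, which used DESeq2. Standard errors were derived from the log2 fold change and its F statistic. Positions and exon lengths came from GENCODE vM1 on NCBIM37 (mm9), which held 20641 of the symbols, and promoter windows from RefSeq. The members and lists were chosen with earlier results of these data known. The named genes were the members, the partner genes past both thresholds, the most abundant, highest and lowest of each list, and the 5 nearest profiles of each member, and genes beside Cass4 and single genes such as Hmgcs1, Ptk2, Crk, Dock2, Rap1a, Rap1b and Src were added after their values were seen. The edgeR scripts were tested on simulated data. Alternatives were DESeq2 1.42.0, RLE factors, total-count scaling, other filters, a replicate block, thinned counts, a correction for GC content and length, a prior count of 2, the adjusted p-value alone, and each library left out.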

Additional observations from a re-analysis of the deposited data

How the results depend on the processing

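The log2 fold changes of Cass4 and Nedd9 stayed below 0 in all 14 alternatives, between -4.60 and -3.92 for Cass4 and between -0.95 and -0.67 for Nedd9. Cass4 moved by more than its replicate SD with thinned counts (-4.60) and with the GC content and length correction together with the block (-3.92), and Nedd9 with total-count scaling (-0.95), which also took its mean upon washout to 77.1 CPM. The cause was not tested, except that total-count scaling moved the median of all genes to -0.21. With each library left out, Cass4 lay between -4.38 and -3.93 and Nedd9 between -0.82 and -0.67, where the library left alone in its condition was assumed to vary like the others. Over all genes, 950 were higher and 1437 lower. Total-count scaling gave 586 higher genes and took their share of calls from 39.8% to 23.0%, and the adjusted p-value alone gave 3315 higher and 3120 lower. Of the partner genes, the number that rose, 1, was 0 with total-count scaling, with thinned counts and without GSI replicate 1, where Elmo1 was at 0.92, 0.97 and 0.96. It was 3 with the adjusted p-value alone, which gave 22 that fell in place of 6, and 3 fell when at least 10 counts in every library were required, which removes genes from the test. With 1 library left out, 0 to 1 rose and 4 to 6 fell. Tgfb1i1 lost its call in 8 of its 12 alternatives, among them each library left out, while its log2 fold change stayed between -1.80 and -0.89. The replicate numbers are not said to pair the libraries. They go with depth, since the replicates numbered 1 had 29671401 (GSI) and 36364200 (washout) counts and those numbered 2 had 13716199 and 14451995. With the replicate block 981 genes were higher and 1576 lower, 1 and 6 of the partner genes, and the values were -4.11 for Cass4 and -0.76 for Nedd9. The deviations of the replicates numbered 1 correlated at 0.50 between conditions. No fold change can be given for Bcar1 and Efs, with 1 read each, and the cause of their low counts was not tested.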
